A study of Mus musculus with 2 samples.

Results

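The chemokine genes followed in CD8+ tumor-infiltrating lymphocytes (TIL) were *Ccl1*, *Ccl3*, *Ccl4*, *Ccl5*, *Ccl9*, *Xcl1* and *Cxcl10*. They were chosen by name, as 7 of the 38 chemokine symbols, which cover 44 genes since 5 symbols stand for several, and 25 of these genes had at least 1 unique molecular identifier (UMI, the tag that marks 1 captured RNA molecule) in the cells kept. The cells came from B16 F0 melanoma grown after transplantation in male C57Bl/6J mice aged 16 weeks, and were purified by CD8 staining. The Lean library came from mice on normal chow (NC) and the Obese library from mice made obese on a western diet (WD). Each diet is represented by 1 10x Genomics 3′ single-cell library, and how many mice went into each library is not given in the sources used here. Diet, library preparation and sequencing therefore cannot be told apart, no test between diets is possible, and each 95% interval below covers counting error only.

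Chemokines are small secreted proteins that draw cells bearing the matching receptor. Activated CD8+ T cells are a known source of *Ccl3*, *Ccl4* and *Ccl5*, inflammatory chemokines that attract leukocytes, and of *Xcl1*, which calls Xcr1+ cross-presenting dendritic cells. *Ccl1* is the ligand of Ccr8, a receptor known from regulatory T cells, *Ccl9* is a ligand of Ccr1 known mostly from myeloid cells, and *Cxcl10* is an interferon-induced ligand of Cxcr3, which activated T cells carry. The classes are named after the first cysteines of the mature protein, which are adjacent in the CC class, separated by 1 residue in the CXC class and reduced to a single one in the C class. To show this difference, the 30 coding bases around that site are printed for 6 of the genes (GENCODE M21 transcripts, GRCm38, the assembly also called mm10), with the first cysteine codon or codon pair in capitals.
Ccl1: gtctccaatagcTGCTGCttgaacaccttg
Ccl4: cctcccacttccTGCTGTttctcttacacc
Ccl5: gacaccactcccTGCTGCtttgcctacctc
Ccl9: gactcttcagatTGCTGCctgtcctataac
Xcl1: gaagagagtagcTGTgtgaacttacaaacc
Cxcl10: aggacggtccgcTGCaacTGCatccatatc
The 5 CC genes hold 2 adjacent cysteine codons, *Cxcl10* holds 2 that are 1 codon apart, and *Xcl1* holds 1. Over the whole coding sequence, *Ccl3* and *Ccl4* were identical at 201 of 288 aligned bases (69.8%), the highest of the 21 pairs, followed by *Ccl3* and *Ccl5* at 64.0%.

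In the GRCm38 annotation, the 5 CC genes lie on chromosome 11. *Ccl5* (ENSMUSG00000035042) spans chr11:83525778-83530518 on the minus strand, *Ccl9* (ENSMUSG00000019122) chr11:83572919-83578636 on the minus strand and *Ccl3* (ENSMUSG00000000982) chr11:83647844-83649355 on the minus strand. *Ccl4* (ENSMUSG00000018930) spans chr11:83662584-83664683 on the plus strand, next to *Ccl3*. The model of *Ccl1* (ENSMUSG00000020702) takes in chr11:82176657-82305690 on the minus strand, 129034 bases, and is the longest of the 7. *Xcl1* (ENSMUSG00000026573) lies at chr1:164931644-164935527 and *Cxcl10* (ENSMUSG00000034855) at chr5:92346638-92348889, both on the minus strand.

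Cells were kept with a mitochondrial share under 7.5% and a total above 500 and below 50000 UMIs, which gave 2456 of 2697 lean and 2289 of 2623 obese cells. They held 27815785 and 28705830 UMIs, with a median of 7958 per cell in the lean and 9103 in the obese library. T cell markers (*Cd3d*, *Cd3e*, *Cd3g*, *Trac*, *Cd8a*, *Cd8b1*) summed to a CPM (UMIs of a gene in each 1000000 UMIs of the cells) of 5722 in lean and 5009 in obese cells. The 7 macrophage or monocyte markers summed to 22.7 and 22.2 CPM, the 5 melanoma markers to 0.683 and 1.01 CPM with *Tyr* at 0 in both, and the 4 B cell markers to 3.27 and 4.22 CPM. The 8 dendritic markers summed to 327 and 404 CPM and the 2 NK markers to 2.88 and 0.871 CPM, with *Ncr1* at 0 in the obese library. The 4 hemoglobin genes counted 0 UMIs in the lean and 9193 UMIs in the obese library. The part of these other transcripts in the results was not tested, except where a value without the cells concerned is given. The libraries shared 2 cell barcodes among the cells kept.

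Clusters were made without any chemokine gene among the variable genes, so that the genes described did not build them. Of the 6 clusters, cluster 0 (1182 cells) was led by *Gzma* and interferon-induced genes such as *Ifit3* and *Isg15*, cluster 1 (1069 cells) by *Pclaf*, *Birc5* and histone genes (proliferating-like), cluster 2 (997 cells) by *Satb1*, *Lef1*, *Tcf7* and *Ccr7* (naive- or memory-like), and cluster 3 (912 cells) by the granzymes *Gzmd*, *Gzmf* and *Gzme* (effector-like). Cluster 4 (555 cells) was shallow, with a median of 2314 UMIs per cell, and was led by the hemoglobin genes *Hbb-bs*, *Hba-a1*, *Hbb-bt* and *Hba-a2*. It stayed unnamed, and its lean cells held 0 UMIs of these genes. Cluster 5 (30 cells) was led by *Tyrobp* and MHC class II genes (dendritic-like). A finer division gave 13 subsets, numbered separately. No doublets were taken out, because Scrublet, a doublet caller, found only 2 among 4745 cells and cannot be taken to have worked.

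Together the 7 chemokines made up 0.830% of all UMIs in the lean and 0.767% in the obese library. *Ccl5*, also known as RANTES, was the most abundant, and gave 60.4% of the chemokine UMIs of lean and 69.8% of those of obese cells. The levels, which in a 3′ library count molecules and are not divided by gene length, ran in the same order in both libraries, from *Ccl5* through *Ccl4*, *Ccl3*, *Xcl1*, *Ccl1* and *Cxcl10* to *Ccl9*. No 95% interval overlapped that of its neighbor in this order. The 31 other chemokine symbols together held 1908 UMIs, 0.421% of all chemokine UMIs, and 13 of them were at 0 in both libraries. Only *Ccl25* (7.98 CPM in both), *Ccl27a* (7.80 and 4.67 CPM) and *Ccl8* (1.40 and 6.24 CPM) reached 5 CPM in a library, and 116 of the 179 obese *Ccl8* UMIs were in the 21 obese cells of dendritic-like cluster 5.

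*Ccl5* was found in most cells and was highest in cluster 0. Its level was 5017 CPM (95% interval 4990.4 to 5043) in the lean and 5348 CPM (5321 to 5375) in the obese library. In cluster 0 it stood at 14147 CPM in lean and 14063 CPM in obese cells, several times the 2625 and 3258 CPM of proliferating-like cluster 1. Over both libraries together, cluster 0 held 37.4% of all *Ccl5* UMIs with 24.9% of the cells and 13.8% of the UMIs of all genes. In the lean library cluster 3 held more, with 56832 UMIs against 36305 in cluster 0. In the obese library these were 20974 and 73285. Within cluster 0, subset 0, the 1038 cells led by *Gzma*, *Ccr2* and *Cxcr3*, reached 15918 and 14769 CPM. The lowest level was in subset 6, naive- or memory-like cells led by *Lef1*, *Igfbp4* and *Ccr7*, at 717 CPM in lean and 749 CPM in obese cells.

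Shares of cells with a UMI depend on depth, so they were also taken from 2000 UMIs drawn from each cell (thinned cells), without the 126 lean and 112 obese cells that held fewer. Before thinning, 89.29% of lean and 89.95% of obese cells had a *Ccl5* UMI. In thinned cells of subset 0 the share was 94.8% (95% exact binomial interval 92.2 to 96.8) in lean and 97.4% (95.9 to 98.5) in obese cells. In subset 6 it was 33.3% (25.1 to 42.4) and 32.2% (25.9 to 39.1), at median depths before thinning of 6283 and 6764 UMIs against 4937 and 6593 in subset 0. *Ccl5* had a UMI in more thinned cells than any other member, 1888 of 2330 in lean and 1775 of 2177 in obese.

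*Ccl3* and *Ccl4*, the macrophage inflammatory proteins 1α and 1β, were both highest in the effector-like and proliferating-like clusters and both lower in the obese library. *Ccl3* stood at 989.9 CPM (978 to 1002) in lean and 611 CPM (602 to 620.4) in obese cells, and *Ccl4* at 1705 CPM (1689.9 to 1721) and 1016 CPM (1005 to 1028). In cluster 3 *Ccl3* was at 1518 CPM in lean and 968 CPM in obese cells, and *Ccl4* at 2848 and 1621 CPM. Naive- or memory-like cluster 2 had the lowest levels, with *Ccl3* at 39.5 and 29.1 CPM and *Ccl4* at 129.7 and 111 CPM. Cluster 1, whose cells held a median of 22526 UMIs, supplied 56.6% of all *Ccl3* and 47.5% of all *Ccl4* UMIs with 22.5% of the cells, but it also held 45.6% of the UMIs of all genes. With every cell thinned to 2000 UMIs, cluster 3 led over both libraries together, with 43.7% of *Ccl3* and 44.0% of *Ccl4* UMIs. The libraries differed in the number of such cells, and also in the size of the 2 clusters. Thinned lean cells with *Ccl3* numbered 325 of 615 in cluster 3 and 266 of 485 in cluster 1. Obese cells with *Ccl3* numbered 116 of 296 and 262 of 583. For *Ccl4* they numbered 429 and 277 in lean, and 145 and 301 in obese cells, of the same totals.

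Among the subsets, subset 2, led by *Gzmd*, *Gzmf* and *Gzme*, had the highest *Ccl3* level of the 13 subsets, at 1685 CPM in lean and 1273 CPM in obese cells. In its thinned cells *Ccl4* had a UMI in 80.2% (76.4 to 83.6) of lean and 70.5% (62.7 to 77.5) of obese cells. The same shares in subset 6 were 7.32% (3.40 to 13.4) and 4.39% (2.03 to 8.17). Both genes were found largely in the same cells. In thinned lean cells, 77.0% of the 773 cells with *Ccl3* had *Ccl4*, against 29.9% of the cells without it, and in thinned obese cells these shares were 72.9% of 579 cells and 31.5%. Within cluster 3 they were 87.7% against 49.7% in lean and 77.6% against 30.6% in obese cells.

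*Xcl1*, or lymphotactin, and *Ccl1* were found in fewer cells. Over both libraries together, proliferating-like cluster 1 held most of their UMIs, 61.6% for *Xcl1* and 53.4% for *Ccl1*. With each cell thinned to 2000 UMIs, cluster 1 held 51.6% of *Xcl1* UMIs, while cluster 3 led for *Ccl1* with 58.0%. Both genes also had a shared source in a small unnamed group. That group, subset 7, held 94 lean and 130 obese cells. Beside *Ccl1* and *Xcl1* it was led by *Cd81*, *Penk*, *Csf2*, *Tbc1d4* and *Cxcl13*, itself a chemokine gene but not a member. Subset 7 was 4.72% of the cells and held 39.2% of all *Ccl1* and 23.6% of all *Xcl1* UMIs, while its share of the UMIs of all genes was 5.50%. Subset 3, which made up 49.7% of cluster 1, held more *Xcl1* UMIs. These were 2807 in lean and 4334 in obese cells, against 2234 and 4118 in subset 7. *Ccl1* reached 899 CPM in lean and 752 CPM in obese cells of subset 7, and *Xcl1* 1845 and 2171 CPM. Of its thinned cells, 68.1% (57.7 to 77.3) in lean and 63.1% (54.2 to 71.4) in obese had an *Xcl1* UMI, against 1.63% (0.198 to 5.75) and 2.93% (1.08 to 6.26) in subset 6. Only 21.3% (13.5 to 30.9) and 15.4% (9.66 to 22.8) of them had a *Ccl1* UMI, and none of the 123 lean and 205 obese cells of subset 6 had 1.

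Subset 10, a further 98 cells led by *Loxl2*, *Ung*, *Tnfsf14* and *Crtam* beside the chemokines, stood out by its *Xcl1* level, at 7055 CPM in its 41 lean and 1448 CPM in its 57 obese cells. Its *Ccl4* level was 4792 CPM in lean and 2008 CPM in obese cells. A few cells carried these values, as the 10 cells with the most held 79.6% of the 3713 lean *Xcl1* UMIs and 93.1% of the 2522 lean *Ccl4* UMIs of the subset. *Ccl1* lay at 388 and 398 CPM in this subset. In clusters 0 and 2, *Ccl1* counted 4 UMIs each in both libraries together.

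*Ccl1* and *Xcl1* were also found in the same cells. Of the 72 thinned lean cells with *Ccl1*, 63.9% had *Xcl1*, against 13.9% of the cells without *Ccl1*, and the shares were 66.3% of 83 cells and 17.6% in the obese library. In the other direction, 12.8% of 359 lean and 13.0% of 423 obese cells with *Xcl1* had *Ccl1*. *Ccl3* was found in 73.6% of lean and 68.7% of obese cells with *Ccl1*, against 31.9% and 24.9% of those without. For *Ccl4* these shares were 69.4% and 65.1% against 44.8% and 41.6%. For *Ccl5* they were 72.2% and 85.5% against 81.3% and 81.4%. Within cluster 3, 59.5% of lean and 57.6% of obese cells with *Ccl1* had *Xcl1*, against 14.7% and 33.5% of those without. Within effector-like cluster 3, 42.1% of lean cells with *Xcl1* had *Ccl4*, against 75.6% of those without, and 37.4% against 55.6% in obese cells. Over all cells these shares were 38.4% against 46.8% in lean and 42.6% against 42.5% in obese cells. In cluster 1 they were 47.7% against 59.8% and 52.7% against 51.3%. Cluster 3 joins subset 7 to subset 2, a group led by *Gzmd*. The part of this mix in the contrast was not tested.

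*Cxcl10* had another distribution, with its highest level in subset 8, the 134 cells led by *Ifit3*, *Ifit1*, *Isg15* and *Rsad2* (interferon-stimulated-like). It stood at 432 CPM in the 63 lean and 904 CPM in the 71 obese cells of that subset, against 29.0 CPM (27.1 to 31.1) and 59.7 CPM (56.9 to 62.6) over all cells. The subset held 25.0% of all *Cxcl10* UMIs with 2.82% of the cells. In its thinned cells, 38.1% (26.1 to 51.2) in lean and 40.8% (29.3 to 53.2) in obese had a *Cxcl10* UMI. In effector-like subset 2, with *Gzmd* in the lead, the shares were 1.59% (0.688 to 3.10) and 4.49% (1.82 to 9.03), at median depths of 11097 and 14497 UMIs against 5761 and 6354 in subset 8. *Ccl3* had a UMI in 15.8% of thinned lean cells with *Cxcl10* against 34.0% of those without, and in 22.0% against 27.0% of obese cells.

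*Ccl9* was close to the limit of detection. It counted 284 UMIs in 63 lean and 153 UMIs in 38 obese cells, which is 10.2 CPM (9.06 to 11.5) and 5.33 CPM (4.52 to 6.24). Cluster 3 held 53.3% and cluster 1 41.9% of these UMIs. The highest single cell held 53 UMIs in the lean and 19 in the obese library, and 22 of the 24 lean and all 22 obese cells with the most *Ccl9* had a UMI of *Cd8a* or *Cd8b1*. *Lyz2*, a macrophage gene, was found in 2 and 3 of these cells.

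**Figure D1:**
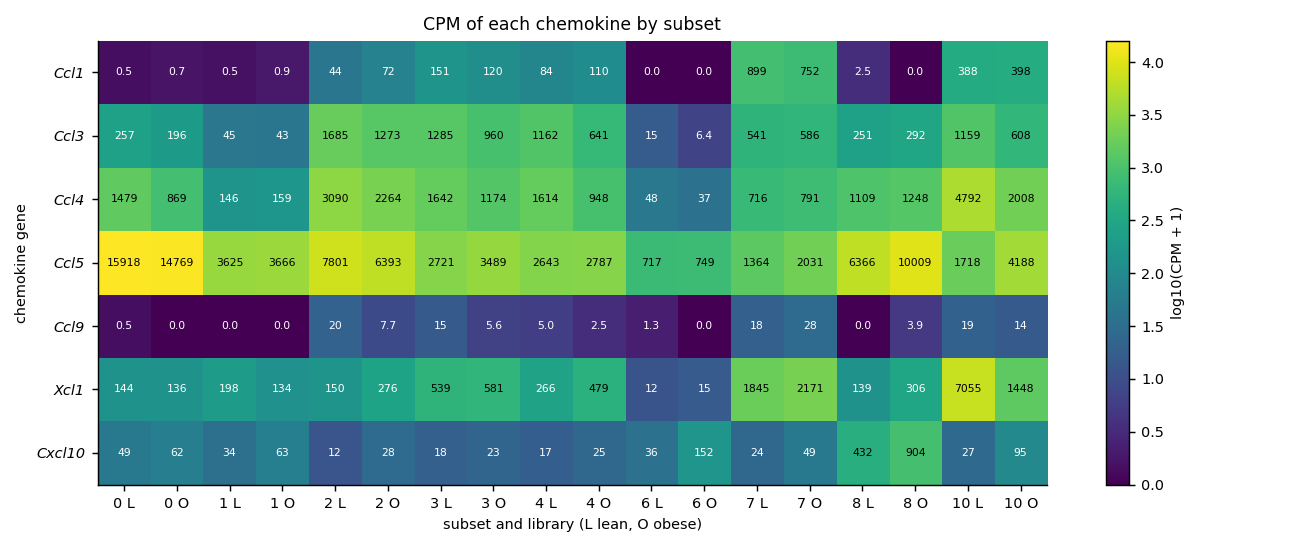
Level of each chemokine gene (rows, CPM, printed in each field) in 9 subsets of cells, with the lean (L) and the obese (O) library side by side (columns), colored by log10(CPM + 1). *Ccl5* peaked in subset 0, *Ccl3* in subset 2, *Ccl1* in subset 7, *Xcl1* in subsets 7 and 10, and *Cxcl10* in subset 8, among the subsets drawn; subsets 5, 9, 11 and 12 are not drawn.

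*Cxcl10* followed the interferon-induced genes in part. Its obese level was 152 CPM in subset 6 and 62.1 CPM in subset 0, where the 9 interferon-stimulated genes summed to 166 and 492 CPM over both libraries. Because *Cxcl10* was highest in interferon-stimulated-like subset 8, its promoter is printed as the 250 bases before the start of transcription (RefSeq, GRCm38.p6, chr5:92348890-92349139, minus strand). Beside it stands that of *Ccl1* (chr11:82179813-82180062, minus strand), which counted 1 lean and 0 obese UMIs in subset 8. Entries were found for 5 of the 7 genes, *Ccl1*, *Ccl3*, *Ccl9*, *Xcl1* and *Cxcl10*. Capitals mark matches, on either strand, to the interferon response element core (GAAA, any 2 bases, GAAA), to 2 forms of the NF-kB site (GGGA, any 2 bases, then TTCC in the first form and TCCC in the second), and to the AP-1 site TGANTCA.
Cxcl10: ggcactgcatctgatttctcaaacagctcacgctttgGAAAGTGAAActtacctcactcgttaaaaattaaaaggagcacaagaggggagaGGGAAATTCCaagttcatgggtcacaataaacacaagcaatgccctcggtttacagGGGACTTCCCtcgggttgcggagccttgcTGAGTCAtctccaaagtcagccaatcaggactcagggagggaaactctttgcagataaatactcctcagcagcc
Ccl1: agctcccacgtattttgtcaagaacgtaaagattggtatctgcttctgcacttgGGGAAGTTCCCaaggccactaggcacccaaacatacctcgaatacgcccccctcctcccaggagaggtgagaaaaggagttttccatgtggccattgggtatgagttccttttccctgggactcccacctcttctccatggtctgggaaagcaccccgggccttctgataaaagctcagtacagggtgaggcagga
The *Cxcl10* promoter held 1 interferon element match, at bases -213 to -204 from the start, 1 match to each NF-kB form, at -159 to -150 and -103 to -94, and 1 TGANTCA match at -74 to -68. The *Ccl1* promoter held the first NF-kB form on both strands, at -196 to -187 and -195 to -186, which overlap in 9 bases and read as 1 run of capitals. Of all 32851 promoters of the same length, 2.98% held the interferon element core, 1.21% the first and 0.578% the second NF-kB form, and 6.75% TGANTCA. Of these motifs, *Ccl3* and *Xcl1* held none in this window and *Ccl9* held TGANTCA at -53 to -47. A match is a run of letters and was not tested as a bound site.

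The members also differed in how few cells held their RNA. In the lean library the 24 cells (1%) with the most UMIs of a gene held 80.4% of all *Ccl1* UMIs, 77.5% of *Ccl9*, 46.5% of *Xcl1*, 41.96% of *Cxcl10*, 23.9% of *Ccl3*, 22.4% of *Ccl4* and 7.88% of *Ccl5*. In the obese library the top 22 cells held 77.7% of *Ccl1*, 89.5% of *Ccl9*, 36.4% of *Xcl1*, 32.2% of *Cxcl10*, 29.2% of *Ccl3*, 24.5% of *Ccl4* and 6.71% of *Ccl5*. The T cell receptor chain gene *Cd3e*, for comparison, had 5.57% and 4.72% of its UMIs in the same number of cells. *Ccl1* was the extreme case among the members with over 1000 UMIs, since 7 lean cells and 8 obese cells held 50% of its UMIs. Its highest lean cells held 399 and 387 UMIs, and its highest obese cells 311 and 286. For *Ccl5*, 310 lean and 341 obese cells were needed to reach 50%.

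This concentration was not that of genes at a like level. Of the 1662 lean genes at 0.5 to 2 times the CPM of *Ccl1*, 0 had a higher share in the top 1% of cells, and their median share was 7.83%. In the obese library 2 of 1502 genes did, with a median of 7.11%. For *Xcl1*, 0 of 403 lean and 0 of 353 obese genes had a higher share, with medians of 6.18% and 5.63%. *Cxcl10* was exceeded by 13 of 3707 lean and 14 of 2694 obese genes. *Ccl5*, the least concentrated member, was exceeded by 0 of 73 lean and 1 of 74 obese genes at a like level, with medians of 4.24% and 3.93%. After thinning, the top 1% of cells still held 78.8% of lean and 73.7% of obese *Ccl1* UMIs, and 46.9% and 33.1% of *Xcl1* UMIs.

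**Figure D2:**
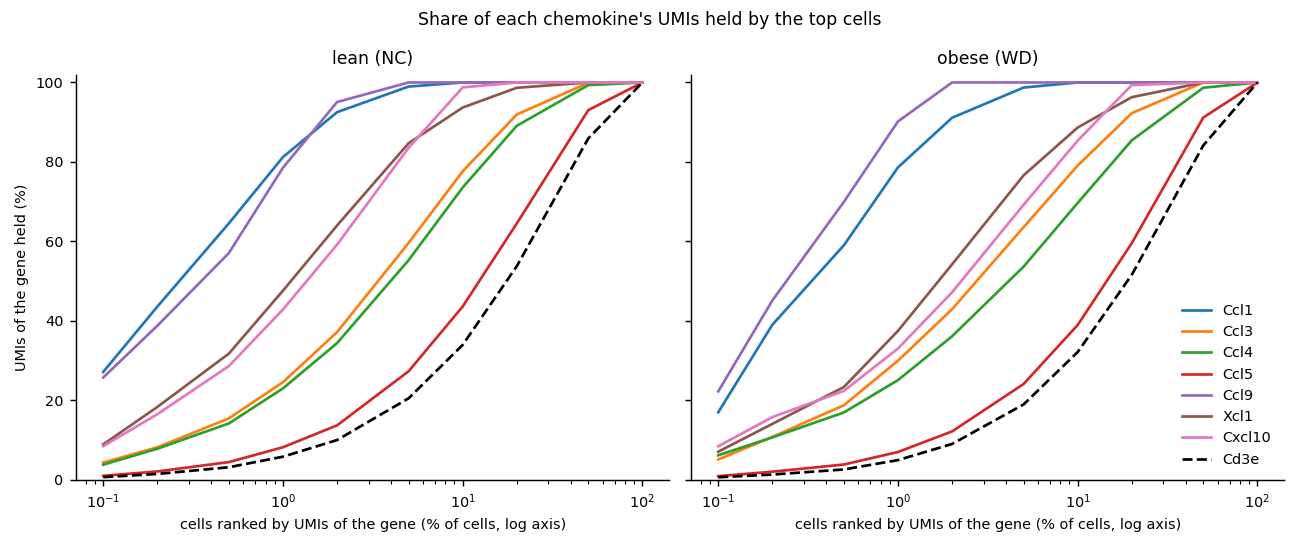
Share of the UMIs of each chemokine gene (y axis, %) held by the cells with the most UMIs of it (x axis, % of cells, log axis), in the lean (left) and the obese library (right), with *Cd3e* as a dashed line. The curves of *Ccl1* and *Ccl9* rise first and that of *Ccl5* last among the chemokines, near *Cd3e*.

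The top cells of each member carried T cell transcripts. Of the top 24 lean cells of each gene, 22 to 24 had a UMI of *Cd8a* or *Cd8b1*, and all 22 top obese cells did for each gene. *Pmel*, a melanoma gene, was found in 0 of them for every member. *Cd74*, a gene of the MHC class II pathway, was listed with the dendritic markers. It had a UMI in 14 of 24 lean and 17 of 22 obese top *Ccl1* cells. The counts were 12 and 15 for both *Ccl3* and *Xcl1*, 11 and 15 for *Ccl9*, and 8 and 11 for *Ccl4*. They were 6 and 7 for *Cxcl10* and 3 and 1 for *Ccl5*. Cells outside the top were not counted for *Cd74*. *Siglech*, which marks plasmacytoid dendritic cells, was found in 1 top obese *Cxcl10* cell and in 0 others. The part of RNA from other cells in these values was not tested. The top cells were deeper than the rest in both libraries for every member but *Ccl5*. For *Ccl1* their median was 20041 UMIs in lean and 25540 UMIs in obese, against 7900 and 9043 in all other cells. The gap was smaller for *Cxcl10*, at 8739 and 10463 against 7938.5 and 9091. For *Ccl5* the medians were 12221 and 7491.5 against 7919.5 and 9118. The part of depth or of doublets in single cells was not tested. Of the 24 top *Ccl1* cells in the lean library, 11 were in subset 7, and of the 22 in the obese library, 9.

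The top cells of one chemokine were in part those of another. *Ccl3* and *Ccl4* shared 14 of 24 top lean cells and 10 of 22 top obese cells. *Ccl1* and *Xcl1* shared 11 of 24 and 7 of 22, whereas *Ccl1* and *Cxcl10* shared 0 in both libraries, as did *Ccl1* and *Ccl5*. In the top *Ccl1* cells *Xcl1* stood at 6389 CPM in lean and 5061 CPM in obese, against 332 and 408 CPM in the other cells, and *Csf2*, which encodes the growth factor GM-CSF, at 176 and 339 CPM against 2.86 and 4.87 CPM. *Gzmb*, the cytotoxic protease granzyme B, stood in the same cells at 799.7 against 1322 CPM in lean and at 621 against 616 CPM in obese. In the top *Ccl3* cells *Ifng*, the cytokine interferon gamma, stood at 3179 against 518 CPM in lean and 2081 against 489 CPM in obese. In thinned cells, 29.0% of lean and 26.8% of obese cells held UMIs of 3 or more of the 7 genes at once.

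Across 10 subsets with at least 50 cells in each library, 20 points in all, the genes with the most similar log2(CPM + 10) were *Ifng* for *Ccl4* (Pearson r = 0.98), *Litaf* for *Ccl3* (0.97), *Cd70*, the ligand of Cd27, for *Ccl1* (0.95), *Oasl2*, an interferon-induced gene, for *Cxcl10* (0.90), *Decr1* for *Xcl1* (0.90), *Ctla2a* for *Ccl5* (0.90) and *Tnfrsf4*, which encodes OX40, for *Ccl9* (0.81). *Ccl3* and *Ccl4* had an r of 0.91, *Ccl1* and *Ccl9* of 0.81, *Ccl1* and *Xcl1* of 0.76 and *Ccl1* and *Cxcl10* of -0.44. *Ccl9* itself did not reach 50 CPM in any point, the minimum asked of the genes ranked, so its r values rest on few UMIs. The points share 2 libraries and differ in depth, so these values describe likeness and carry no p-value.

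The comparison of diets asks how the chemokine RNA of CD8+ TIL differed between obese and lean hosts. Over all cells, *Cxcl10* was higher in the obese library by 0.5 or more on the log2 scale, and *Ccl3*, *Ccl4* and *Ccl9* were lower by as much, while *Ccl1*, *Ccl5* and *Xcl1* lay between these bounds. In thinned cells *Ccl9* turned to 0.32, from few UMIs, and 2 members were lower. The log2 ratio of obese over lean was 1.04 (0.92 to 1.16) for *Cxcl10*, from 808 lean and 1715 obese UMIs. It was -0.70 (-0.72 to -0.67) for *Ccl3*, from 27534 and 17547 UMIs, -0.75 (-0.77 to -0.73) for *Ccl4*, from 47432 and 29174 UMIs, and -0.94 (-1.23 to -0.65) for *Ccl9*. For *Ccl1* it was 0.23 (0.16 to 0.31), for *Xcl1* 0.16 (0.13 to 0.20) and for *Ccl5* 0.09 (0.08 to 0.10). Of the 11262 genes with at least 50 UMIs, 5.81% were higher and 4.15% lower by 0.5 or more. Against this background, 1 of 7 members was higher and 3 of 7 were lower, with a median of 0.09 over the members and of 0.04 over all genes.

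**Figure D3:**
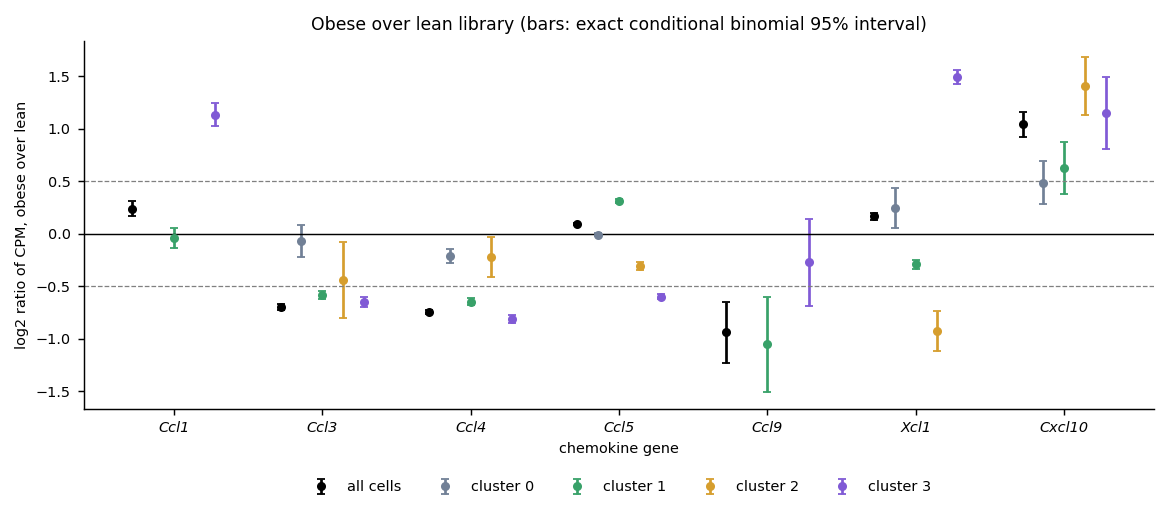
Log2 ratio of CPM, obese over lean library (y axis), for each chemokine gene (x axis), over all cells (black) and within clusters 0 to 3 (colors), where both libraries together held at least 50 UMIs. Bars are exact conditional binomial 95% intervals and dashed lines mark 0.5 and -0.5. *Cxcl10* lay above 0 in each set of cells and *Ccl3* and *Ccl4* below, while *Ccl1*, *Ccl5* and *Xcl1* had no common side.

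*Cxcl10* was at a higher level in the obese cells of each of clusters 0 to 3. Its level was 103 CPM in lean and 144 CPM in obese cells of cluster 0 (log2 ratio 0.48, 0.28 to 0.69), 17.9 and 27.6 CPM in cluster 1 (0.62, 0.38 to 0.87), 37.0 and 97.9 CPM in cluster 2 (1.40, 1.13 to 1.68) and 16.3 and 36.0 CPM in cluster 3 (1.15, 0.81 to 1.49). The ratio within interferon-stimulated-like subset 8 was 1.07 (0.81 to 1.33), and 0.40 (-0.05 to 0.86) without the 10 top cells of each library, which held 61.5% of its lean and 75.5% of its obese UMIs. The ratio in naive- or memory-like subset 6 was 2.08 (1.503 to 2.70), from 28 lean and 213 obese UMIs. In thinned cells of subset 6 the share with a *Cxcl10* UMI was 4.07% (1.33 to 9.23) in lean and 14.6% (10.1 to 20.2) in obese cells. Dendritic-like subset 12 went the other way (log2 ratio -1.21, -1.96 to -0.46). *Cxcl10* stood at 206 CPM in its 16 lean and 89.4 CPM in its 27 obese cells, from 33 and 31 UMIs. In cluster 5 the levels were 167 CPM in lean and 95.4 CPM in obese cells (-0.81, -1.67 to 0.09). The summed level of 9 interferon-stimulated genes was 322 CPM in lean and 307 CPM in obese cells over all clusters, and *Irf1*, which drives interferon-induced transcription, had a log2 ratio of -0.10 (-0.15 to -0.05). The 10 cells with the most *Cxcl10* held 25.7% of its lean and 21.3% of its obese UMIs.

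*Ccl3* and *Ccl4* were lower by 0.5 or more on the log2 scale in the obese cells of both main sources. In cluster 1 the ratio was -0.58 (-0.62 to -0.55) for *Ccl3* and -0.65 (-0.68 to -0.62) for *Ccl4*, and in cluster 3 it was -0.65 (-0.70 to -0.60) and -0.81 (-0.85 to -0.77). In cluster 0 it was -0.07 (-0.22 to 0.08) and -0.21 (-0.28 to -0.15). These turned to 0.40 and 0.24 without the 10 cells of each library with the most UMIs, out of 466 lean and 716 obese cells. Finer division narrowed the gap in the effector-like cells, to -0.40 (-0.46 to -0.35) for *Ccl3* and -0.45 (-0.49 to -0.41) for *Ccl4* in subset 2. Without the 10 top cells of each library these were -0.99 and -0.98. However, 10 is a larger share of the 156 obese than of the 505 lean cells. The 10 top cells held 53.5% of obese and 26.7% of lean *Ccl3* UMIs there, and the part of this in the shift was not tested. Finer division did not narrow the gap everywhere. For *Ccl3* and *Ccl4* the ratios were -0.42 and -0.48 in subset 3, -0.86 and -0.77 in subset 4, and -0.93 and -1.25 in subset 10. In subset 0 they were -0.39 and -0.77, and the 10 top lean cells there held 48.8% and 49.5% of the lean UMIs. Other cells had values above 0, with 0.11 (-0.03 to 0.26) for *Ccl3* and 0.14 (0.02 to 0.27) for *Ccl4* in subset 7, where they were 0.82 and 1.21 without the top cell of each library. In unnamed subset 9, of 111 cells, they were 0.49 (0.16 to 0.84) and 0.89 (0.54 to 1.25), and in shallow cluster 4 0.19 (-0.02 to 0.40) and 0.41 (0.21 to 0.61). Without the top cell of each library, subset 9 gave 0.22 (-0.17 to 0.62) for *Ccl3* and 1.04 (0.62 to 1.49) for *Ccl4*. Without the 10 top cells it gave 0.10 (-0.56 to 0.77) and 0.26 (-0.47 to 1.02).

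In effector-like cluster 3 the members lay far to both sides of 0. *Ccl1* stood at 161 CPM in lean and 352 CPM in obese cells there (log2 ratio 1.13, 1.03 to 1.24), *Xcl1* at 377 and 1057 CPM (1.49, 1.42 to 1.55), and *Ccl5* at 6950 and 4577 CPM (-0.60, -0.63 to -0.58). The 2 libraries filled this cluster with different subsets. Subset 2 gave 82.0% of its 616 lean cells and 52.7% of its 296 obese cells, and subset 7 gave 15.1% and 42.9%. With both libraries given the same mix of subsets, the log2 ratio in cluster 3 was -0.01 for *Ccl1*, 0.48 for *Xcl1*, -0.24 for *Ccl5*, -0.37 for *Ccl3*, -0.46 for *Ccl4* and 0.90 for *Cxcl10*. Within subset 7 itself, *Ccl1* had a ratio of -0.26 (-0.37 to -0.14), which became 0.026 (-0.11 to 0.16) without the top cell of each library, as 1 lean cell held 387 of the 1089 lean UMIs, and *Xcl1* of 0.23 (0.16 to 0.31), and within subset 2 these were 0.70 (0.43 to 0.97) and 0.88 (0.75 to 1.02). Without the 10 cells of each library with the most UMIs of the gene, cluster 3 gave 0.75 for *Ccl1* and -1.05 for *Ccl3*. *Ccl9*, with 159 lean and 74 obese UMIs, gave -1.72, and -0.27 (-0.69 to 0.14) with these cells. The 10 cells were a larger share of the 296 obese than of the 616 lean cells.

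Counted by cluster, 3 of 7 members were higher and 3 lower by 0.5 or more in cluster 3, where 9.55% of all tested genes were higher and 6.36% lower. With the same mix of subsets, 1 was higher and 1 lower. In cluster 1 the counts were 1 and 3 of 7, against 5.85% and 4.22% of all tested genes. *Ccl9* was at -1.05 (-1.51 to -0.61) there, from 115 lean and 68 obese UMIs, or -2.92 without its 10 top cells of each library. In cluster 2 the counts were 1 and 1 of the 5 members with at least 50 UMIs, against 6.17% and 5.71%. *Xcl1* was at -0.93 (-1.12 to -0.73) there, and at -0.55 with the same mix of subsets. In cluster 0 the counts were 0 and 0 of 5, against 7.1% and 4.07%. Without the 10 top cells of each gene, out of 466 lean and 716 obese cells, they were 1 and 0, and *Xcl1* reached 0.80.

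*Ccl5* differed in direction between clusters. It was higher in the obese cells of cluster 1, at 0.31 (0.29 to 0.33), and lower in those of cluster 3, its largest source in the lean library. In cluster 0, its largest source in the obese library, it was close to 0, at -0.01 (-0.03 to 0.01). In cluster 2 it was -0.31 (-0.35 to -0.27), but 0.021 with the same mix of subsets. Subset 6, where *Ccl5* was lowest, gave 21.3% of the lean and 46.7% of the obese cells there. Within subset 8 its level was 6366 CPM in lean and 10009 CPM in obese cells. *Xcl1* was found in 26.8% of lean and 37.5% of obese cells, and in 15.4% and 19.4% of them after thinning, beside a log2 ratio of its level of 0.16. In cluster 1, which held most of its UMIs, the log2 ratio of *Xcl1* was -0.29 (-0.34 to -0.25). The subsets of this cluster differed in direction. The ratio was 0.11 (0.04 to 0.18) in subset 3 and 0.85 (0.76 to 0.94) in subset 4. It was -2.28 (-2.38 to -2.19) in subset 10, from 3713 UMIs in 41 lean and 1116 UMIs in 57 obese cells. The top 1% of cells held 36.4% of *Xcl1* UMIs in the obese and 46.5% in the lean library.

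**Figure D4:**
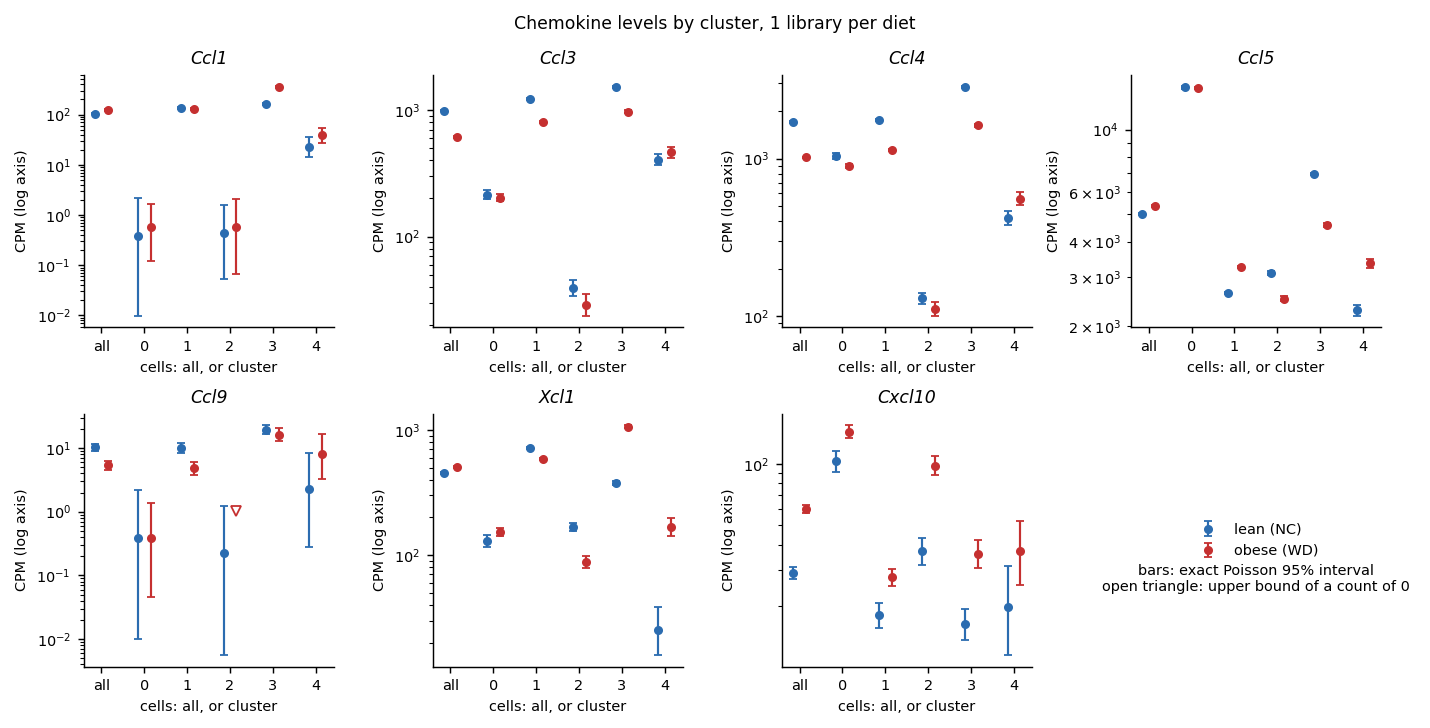
Level of each chemokine gene (y axis, CPM, log axis) over all cells and in clusters 0 to 4 (x axis) in the lean (blue) and the obese (red) library. Bars are exact Poisson 95% intervals for counting error, and an open triangle is the upper bound of a count of 0. The blue points of *Ccl3* and *Ccl4* lie above the red ones in clusters 0 to 3, and the red points of *Cxcl10* lie above the blue ones in clusters 0 to 4.

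The receptors of these chemokines were themselves transcribed in the cells to different degrees. *Cxcr3* stood at 46.7 CPM in lean and 78.7 CPM in obese cells (log2 ratio 0.75, 0.65 to 0.85), and at 171 and 173 CPM in cluster 0, where *Ccl5* was highest. *Ccr1* counted 58 lean and 14 obese UMIs, and 17 and 4 of these were in the dendritic-like cluster 5 of 9 lean and 21 obese cells. Other receptors counted few UMIs, with 11 and 34 for *Ccr3*, 16 and 12 for *Ccr8* and 2 and 7 for *Xcr1*.

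Of 18 genes listed as regulators or as cytokines made alongside, 4 were higher and 1 lower in the obese library by 0.5 or more, against 5.81% and 4.15% of all tested genes. *Zfp36*, which encodes a protein that speeds the decay of cytokine and chemokine RNA, was at 110.5 CPM in lean and 199.6 CPM in obese cells (log2 ratio 0.85, 0.79 to 0.92), and at 45.9 and 118 CPM in cluster 1 (1.36, 1.22 to 1.51). *Nr4a1*, an early gene of T cell receptor signaling, stood at 27.6 and 47.4 CPM (0.78, 0.65 to 0.91), *Csf2* at 6.22 and 11.7 CPM (0.91, 0.64 to 1.19) and *Il2* at 9.78 and 16.8 CPM (0.78, 0.57 to 1.003). *Irf8*, an interferon regulatory factor, was lower, at 178 and 110.2 CPM (-0.69, -0.76 to -0.63). *Ifng* lay at 579.6 and 525 CPM (-0.14, -0.17 to -0.11), and *Nfkbia*, a target and inhibitor of NF-kB, at 806 and 1086 CPM (0.43, 0.41 to 0.46).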

How the data were processed

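CD8+ TIL were measured in 1 Lean and 1 Obese 10x Genomics 3′ library. The deposited count matrices hold whole UMI counts per gene and cell, made by the authors with Cell Ranger 6.0.2 on mm10 (submitters' processing notes), not normalized. Depth was 27815785 lean and 28705830 obese UMIs in the cells kept (mitochondrial share under 7.5%, over 500 and under 50000 UMIs, the limits stated in the paper). The paper counts 2697 lean and 2623 obese cells as analyzed, which are all the deposited cells. Applied here, the limits left out 575 of these, so the cells kept differ from that set. The 7 genes and all gene lists were chosen with earlier results of these data known. Named genes were the 7 members, 6 receptors, 18 regulators or partners, other chemokines at 5 CPM or more in a library, and the genes of most like profile by Pearson r of log2(CPM + 10), of which some genes and 1 sequence are not reported here.

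UMIs were summed over cells and given as CPM with exact Poisson 95% intervals. The log2 ratio of obese over lean had an exact conditional binomial 95% interval, and shares of cells an exact Clopper-Pearson interval. UMIs of 1 cell are not independent, so intervals cover counting error only. Cells were clustered with Seurat 5.3.0 (R 4.3.3) on 2000 variable genes without chemokines, 20 principal components and 20 neighbours, at resolution 0.15 (clusters, the lowest giving 6) and 0.8 (subsets). Ratios of 0.5 or more were counted among genes with at least 50 UMIs. Scripts ran on Python 3.11.15 with scipy 1.17.1 and were tested on simulated data. Coding sequences were aligned with Biopython. Alternatives covered scaling (edgeR 4.0.16 TMM factors), cell filters, thinning, top cells, cluster mix and clustering settings. The alternatives within clusters, within subsets and in left-out cells were chosen after seeing the data. A fixed number of top cells is a larger share of a smaller group, and the part of this in those ratios was not tested.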

Additional observations from a re-analysis of the deposited data

Results flagged for a closer look

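*Ccl5* had a higher level in the obese cells of proliferating-like cluster 1, with a log2 ratio of obese over lean of 0.31, and a lower level in those of effector-like cluster 3, at -0.60, so that the diets differed in opposite directions in the 2 clusters. *Xcl1* did the same between cluster 3, at 1.49, and naive- or memory-like cluster 2, at -0.93. With 1 library per diet, these differences between clusters were not tested. Cluster 3 held 42.9% cells of subset 7 in the obese and 15.1% in the lean library, and with the same mix of subsets its ratio was -0.24 for *Ccl5* and 0.48 for *Xcl1*. In cluster 2 the ratio of *Xcl1* was -0.55 with the same mix of subsets.

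Cells with 50000 or more UMIs were left out of the comparisons and still held chemokine RNA. The 83 lean and 121 obese cells of this kind together held 2621 UMIs of *Ccl1*, 17898 of *Ccl3*, 21451 of *Ccl4*, 37356 of *Ccl5*, 226 of *Ccl9*, 10791 of *Xcl1* and 274 of *Cxcl10*. In these cells *Ccl1* stood at 239 CPM in lean and 130.2 CPM in obese cells (log2 ratio -0.88, 95% interval -0.99 to -0.77), on the other side of 0 from the cells kept. In the lean library 1 cell held 663 of the 1376 lean UMIs, the level was 125.6 CPM without it, and without the top cell of each library the ratio was -0.27 (-0.41 to -0.13). *Ccl5* was also on the other side of 0, at -0.45 (-0.48 to -0.42). *Ccl3* (-0.75, -0.79 to -0.70), *Ccl4* (-0.80, -0.84 to -0.76), *Ccl9* (-1.71, -2.13 to -1.31), *Xcl1* (0.57, 0.51 to 0.63) and *Cxcl10* (1.61, 1.15 to 2.11) lay on the same side as in the cells kept.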

How the results depend on the processing

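No paired analysis was possible because each diet has 1 library and no result comes from a test. Of 84 log2 ratios over all cells (7 genes under 12 alternatives), 42 lay inside the counting interval of the value in the report, 38 lay outside it on the same side of 0 and 4 changed sign. *Cxcl10* lay between 0.76 and 1.26, *Ccl3* between -0.80 and -0.57, *Ccl4* between -0.81 and -0.65 and *Xcl1* between 0.01 and 0.41 in all 12. The sign changed for *Ccl9* with thinned cells (0.32), for *Ccl1* and *Ccl5* with all deposited cells (-0.038 and -0.041) and for *Ccl5* with the same mix of clusters (-0.081). The median over the 7 genes, 0.09 as reported, became -0.041 with all deposited cells and -0.081 with the same mix of clusters, 0.047 with TMM factors, 0.050 with the mean over cells of each cell's CPM, 0.13 with thinning, and 0.10 without the top 1% of cells of each gene or without the 5% of cells with the highest Scrublet score. With the same mix of clusters, 2 genes instead of 1 were higher by 0.5 or more, as *Ccl1* reached 0.51, and with thinning 2 instead of 3 were lower. *Ccl9* went to -1.46 without its 10 top cells and to -2.05 without its top 1% of cells. Few UMIs were left then, as its top 1% of cells held 77.5% of 284 lean and 89.5% of 153 obese UMIs.

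Within clusters, the sign changed without the 10 top cells for *Ccl3* (0.40), *Ccl4* (0.24) and *Ccl5* (0.059) in cluster 0 and *Ccl1* in cluster 1 (0.43) and, with the same mix of subsets, for *Ccl4* (0.069) and *Ccl5* (0.021) in cluster 2 and *Ccl1* in cluster 3 (-0.010). The cause of these changes was not tested. Shares by cluster over both libraries together also changed with each cell thinned to 2000 UMIs. The leading cluster went from 1 to 3 for *Ccl1* (58.0% of its UMIs), *Ccl3* (43.7%) and *Ccl4* (44.0%). For *Ccl9* it went from 3 to 1 (40.4%). Depth limits *Ccl9*, with 19 thinned cells in each library.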
